A study of Homo sapiens with 30 samples.

Results

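The genes of glucose breakdown and of the response to low oxygen were followed in 5 breast cancer cell lines treated with bone morphogenetic protein 7 (BMP7). The set held 36 genes, chosen by name as enzymes, transporters and regulators of glycolysis and as well-known targets of the hypoxia-inducible factor. They were read by 60 of the 41000 probes of a whole-genome oligonucleotide array, out of 30484 gene and transcript names on it. T-47D, ZR-75-30, HCC1954, MDA-MB-231 and MDA-MB-361 cells received BMP7 at 50 ng/ml, or the vehicle alone, after 24 h of adherence. Treatment lasted 30 min or 1 h (the first hour), 3 or 6 h, or 12 or 24 h (the late times). RNA of the treated cells was labelled with Cy5 and RNA of the vehicle-treated cells of the same line and time with Cy3, and both were hybridised to 1 array, giving 30 arrays. Each sample pooled the cells of 3 cultures and each line and time had 1 array, so the tests rest on the spread between lines and between times within a line, not on replicate cultures. Each line is one established tumour line. MDA-MB-231 was grown in 1% and T-47D in 5% fetal bovine serum, so that serum and line cannot be told apart for them. BMP7 was always the Cy5 channel, and any fixed bias of a probe towards a dye therefore stays within its ratio.

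Glycolysis splits glucose into pyruvate in a chain of cytosolic reactions, and lactate dehydrogenase then reduces pyruvate to lactate. In many tumours this route runs fast even with oxygen present. When oxygen falls, prolyl hydroxylases no longer mark HIF1A for degradation, and the stabilised factor binds short DNA motifs near genes of glycolysis, blood vessel growth and mitochondrial removal. BMP7 signals through serine-threonine kinase receptors and SMAD proteins, with the ID genes among its direct targets. The chosen genes fall into roles that order the results: glucose uptake and hexokinases (SLC2A1, SLC2A3, HK1, HK2), upper glycolysis (GPI, PFKL, PFKP, PFKFB3, PFKFB4, ALDOA, ALDOC, TPI1), lower glycolysis and lactate (GAPDH, PGK1, PGAM1, ENO1, ENO2, LDHA and PKM2, the array's name for the pyruvate kinase PKM), pyruvate and glycogen (PDK1, GBE1), oxygen sensing (HIF1A, EGLN1, EGLN3), collagen hydroxylases (P4HA1, P4HA2, PLOD2), mitophagy (BNIP3, BNIP3L), secreted and surface proteins (ADM, VEGFA, CA9), and stress and growth (NDRG1, DDIT4, MXI1, ANKRD37).

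The promoters of 4 members are printed because these genes recur in the results below. Probes of ENO1 and PGK1 were called for a change in BMP7 ratio over time. ADM and DDIT4 had the largest changes in level over time, although these were not called. Whether any result goes with a promoter sequence was not tested. Each sequence is the 250 bases before the RefSeq start of the gene in build GRCh38.p14, 5′ to 3′ on the gene's strand, with capitals on ACGTG or GCGTG, the core letters of the hypoxia response element, or on their reverse complements CACGT and CACGC.
ENO1: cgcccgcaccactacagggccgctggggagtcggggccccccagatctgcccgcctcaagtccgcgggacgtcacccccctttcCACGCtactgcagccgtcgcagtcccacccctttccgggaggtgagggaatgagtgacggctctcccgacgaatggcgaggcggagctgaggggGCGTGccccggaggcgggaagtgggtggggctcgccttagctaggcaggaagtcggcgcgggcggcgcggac
PGK1: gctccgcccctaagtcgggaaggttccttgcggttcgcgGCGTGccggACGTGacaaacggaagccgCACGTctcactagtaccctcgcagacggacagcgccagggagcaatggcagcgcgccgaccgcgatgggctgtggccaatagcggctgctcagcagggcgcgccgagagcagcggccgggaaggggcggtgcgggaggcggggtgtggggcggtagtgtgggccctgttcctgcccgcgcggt
ADM: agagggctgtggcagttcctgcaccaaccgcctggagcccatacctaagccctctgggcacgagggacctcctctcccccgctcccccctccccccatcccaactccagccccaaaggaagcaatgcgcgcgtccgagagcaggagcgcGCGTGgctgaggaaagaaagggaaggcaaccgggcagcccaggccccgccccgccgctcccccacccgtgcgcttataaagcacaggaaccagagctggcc
DDIT4: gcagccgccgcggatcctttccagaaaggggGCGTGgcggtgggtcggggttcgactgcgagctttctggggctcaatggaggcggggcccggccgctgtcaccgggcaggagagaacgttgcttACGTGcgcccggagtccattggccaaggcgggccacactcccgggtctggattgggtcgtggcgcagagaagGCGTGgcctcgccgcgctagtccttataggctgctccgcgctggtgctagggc
The windows lie at chr1:8878687-8878936 on the minus strand for ENO1, chrX:78103998-78104247 on the plus strand for PGK1, chr11:10304823-10305072 on the plus strand for ADM and chr10:72273674-72273923 on the plus strand for DDIT4. ENO1, an enolase, held 2 matches, with the nearer ending 67 bases before the start. PGK1, the phosphoglycerate kinase, held 3 matches, the nearest 178 bases before the start, ADM, the vasodilator peptide adrenomedullin, held 1 at 96 bases, and DDIT4, an inhibitor of mTORC1 signalling, held 3, the nearest at 48 bases. Windows were matched for 32 of the 36 members and not for SLC2A3, BNIP3L, VEGFA and NDRG1. Of the 51 windows of members, 34 (66.7%) held at least 1 match on either strand, against 43.2% of 35116 windows of all genes. The member windows were also richer in G and C, with a median of 69.6% against 58.0%. A match is a run of letters and not a measured binding site. Members were chosen in part as known targets of the hypoxia-inducible factor, so their share with a match is not independent of that choice.

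Ratios are log2 of BMP7-treated over vehicle signal, with the median over all probes at 0 on each array. Levels are log2 of a channel's processed signal with 0 at the array's 75th percentile. A probe was tested where both channels were well above background on at least 4 of the 6 arrays of every line, which left 21011 probes, 52 of them for 33 members. SLC2A3, ALDOC and CA9 had no tested probe. Members are read from the brightest tested probe unless another is named, and adjusted p-values are from limma with Benjamini-Hochberg adjustment over all tested probes, with 0.05 as the threshold. Between 51.7% and 68.1% of probes were well above background in both channels, and the lowest value belonged to MDA-MB-231 at 6 h. That array also had 6.35% of its spots marked as outliers, against 0.409% to 1.45% on the other arrays. Member calls that changed without this array, and called values that it moved by over 1.5 times, are named or counted beside the results. Of the arrays, 6 belonged to a second scan batch, namely the 30 min arrays of ZR-75-30, MDA-MB-231 and HCC1954, the 6 h arrays of ZR-75-30 and MDA-MB-231, and the 3 h array of T-47D. A level is an average over a pool of cells, so that fewer cells with a transcript and less of it per cell cannot be told apart. Among markers of breast cell types the lines differed in VIM, at 6.72 ± 0.64 (SD, n = 6) in MDA-MB-231 and -2.98 ± 0.28 (SD, n = 6) in ZR-75-30, and in CDH1, lowest in MDA-MB-231. Against the mean of the other 4 lines, VIM also differed by 4.95 in HCC1954 and by -5.99 in MDA-MB-361. By the same measure EPCAM differed by -4.38 in MDA-MB-231, and GATA3 by 2.77 in T-47D, 3.06 in ZR-75-30 and -2.01 in HCC1954. ERBB2 was highest in MDA-MB-361, HCC1954 and ZR-75-30. ESR1, the oestrogen receptor that T-47D cells are known for, was low in T-47D at -2.44 ± 0.48 (SD, n = 6), although no other line was higher.

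The treatment was visible in ID1 and ID2, which encode BMP-induced inhibitors of differentiation factors. The mean log2 ratio over the lines was 0.92 for ID2 (SE 0.11, adjusted p = 0.0105) and 0.81 for ID1 (SE 0.12, adjusted p = 0.0224). The other BMP controls read, ID3, SMAD6 and SMAD7, were not called in this test. None of the 52 member probes passed this test in either direction, where 0.547% of all tested probes were called higher and 0.252% lower. At an unadjusted p under 0.05 there were 8 member probes, 15.4%, beside 16.3% of all tested probes. The median member ratio was -0.004, and that of all tested probes -0.002. With normexp background correction and median scaling of the channels 13 member probes were called higher, a setting that moved the median of all tested probes to 0.107.

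The members nearest to the threshold were DDIT4, PLOD2 and VEGFA. DDIT4 had a mean log2 ratio of 0.20 (SE 0.048, adjusted p = 0.102). Its line means were 0.27 in MDA-MB-361, 0.23 in T-47D, 0.20 in ZR-75-30, 0.19 in MDA-MB-231 and 0.11 in HCC1954, so all 5 lay above 0. PLOD2, a lysyl hydroxylase of collagen, had -0.23 (SE 0.060, adjusted p = 0.122), with line means between -0.38 in T-47D and -0.02 in HCC1954. VEGFA, the vascular endothelial growth factor, had 0.20 (SE 0.049, adjusted p = 0.104) by its brightest probe, but -0.08 and -0.13 by 2 of its other 3 tested probes. HIF1A itself had 0.17 (SE 0.058, adjusted p = 0.207), and hexokinase HK1 had 0.20 (SE 0.059, adjusted p = 0.153). In the enzymes of lower glycolysis the means of the brightest probes lay between -0.097 for GAPDH and 0.168 for LDHA.

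On single arrays, 14 of 1546 member ratios (0.906%) were 2-fold or larger, beside 0.745% of the values of all tested probes. Of these 14, 3 were up and 11 down, and they fell on 8 genes. ZR-75-30 held 9 of them, T-47D 4 and HCC1954 1. Of the ZR-75-30 values, 7 came from the 6 h array, where pyruvate kinase PKM2 had -1.20 and -1.27 by its 2 probes, PGAM1 -1.08, TPI1 -1.01, ANKRD37 1.01, PFKL 1.38 and a second ALDOA probe 1.42. On the same array the second PFKL probe had -0.54 and the brightest ALDOA probe -0.52, the opposite sign. This array belonged to the second scan batch and had the widest ratios of the 30 arrays, with an interquartile range of 0.775 over member probes and 0.724 over all tested probes. PLOD2 had -1.18 in T-47D at 12 h, and this fall was still -0.96 at 24 h.

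The member median moved little from array to array. It lay between 0.045 and 0.123 on the 6 MDA-MB-361 arrays, all above 0, and between -0.081 and -0.007 on the 6 HCC1954 arrays, all below 0. The ranges were -0.104 to 0.095 in MDA-MB-231, -0.074 to 0.097 in T-47D and -0.119 to 0.049 in ZR-75-30, each spanning 0.

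**Figure D1:**
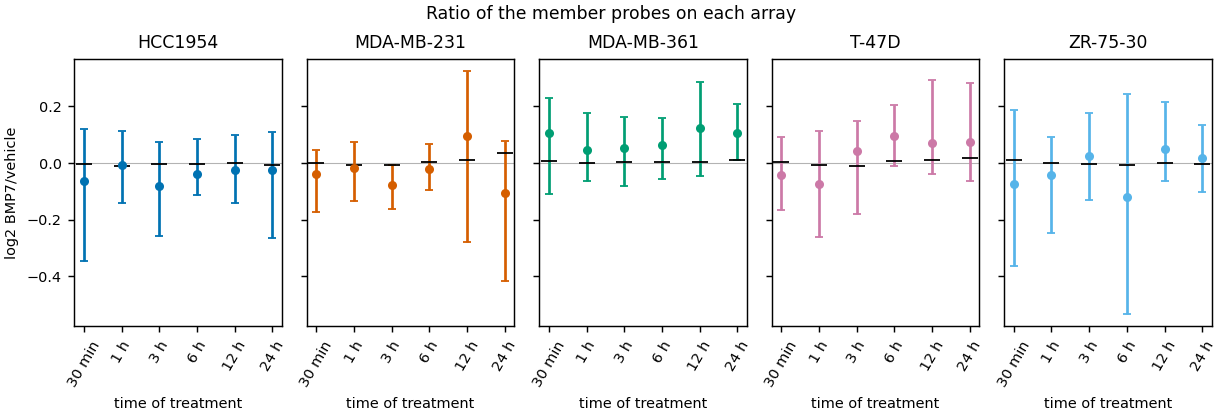
Median (point) and interquartile range (bar) of the log2 BMP7/vehicle ratio over the member probes on each of the 30 arrays, by line and time of treatment, with the median of all tested probes as a short black line. The 6 MDA-MB-361 medians sit above 0 and the 6 HCC1954 medians below it, and the bars are longest for ZR-75-30 at 6 h.

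The next comparison asked whether the ratio differed between the late times, 12 and 24 h, and the first hour, 30 min and 1 h, over the 5 lines. Of the 52 member probes, 6 rose and 1 fell, where 5.89% of all tested probes were called higher and 2.14% lower. The risers were probes of 5 genes of sugar metabolism and collagen modification: ENO1, PGK1, PFKFB3, PFKFB4 and P4HA2. The member that fell was PLOD2. At an unadjusted p under 0.05 there were 18 member probes (34.6%), beside 27.2% of all tested probes. The median change was 0.05 over member probes and -0.01 over all tested probes. By brightest probe 2 of the 33 members rose, ENO1 and PFKFB4, and 1 fell, with a median of -0.02, so that most of the calls and the positive median came from further probes.

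ENO1 was called by both of its probes, with changes of 0.34 and 0.32. By the brighter probe the first-hour ratios were 0.02 and -0.34 in HCC1954, -0.23 and -0.32 in MDA-MB-231, 0.16 and 0.22 in MDA-MB-361, -0.37 and -0.05 in T-47D, and -0.54 and -0.37 in ZR-75-30. At 12 and 24 h they were -0.14 and -0.27 in HCC1954, 0.41 and -0.13 in MDA-MB-231, 0.50 and 0.12 in MDA-MB-361, 0.41 and 0.21 in T-47D, and 0.22 and 0.00 in ZR-75-30. The late ratios were thus above both early ones in MDA-MB-231, T-47D and ZR-75-30, and overlapped them in HCC1954 and MDA-MB-361 (change 0.32, SE 0.10, adjusted p = 0.0485). Without the MDA-MB-231 6 h array, which enters this test only through the spread, the brighter probe missed the threshold (adjusted p = 0.0545).

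PFKFB4, a kinase that makes the activator of phosphofructokinase, moved from ratios of -0.57 and -0.46 to 0.19 and 0.18 in T-47D, and from -0.21 and -0.08 to 0.49 and 0.07 in ZR-75-30. In HCC1954 its ratios went from -0.40 and -0.14 to -0.19 and -0.17, in MDA-MB-231 from -0.03 and -0.05 to 0.36 and -0.04, and in MDA-MB-361 from 0.09 and 0.36 to 0.43 and 0.09. The mean change was positive in all 5 lines (0.29, SE 0.085, adjusted p = 0.0375).

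PLOD2 fell by 0.39 (SE 0.12, adjusted p = 0.0463; without the MDA-MB-231 6 h array adjusted p = 0.052), and the change was negative in all 5 lines. T-47D carried the largest part of it, from -0.07 and 0.11 in the first hour to -1.18 and -0.96 at 12 and 24 h. In the other lines the first-hour ratios were 0.37 and -0.02 in HCC1954, 0.07 and -0.24 in MDA-MB-231, -0.05 and -0.33 in MDA-MB-361, and -0.05 and -0.29 in ZR-75-30. Their late ratios ran from -0.63 in MDA-MB-231 at 24 h to 0.03 in HCC1954 at 24 h.

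For the other 3 genes the call rests on a probe that is not their brightest. PFKFB3, another kinase of the phosphofructokinase activator, rose by 0.43 (SE 0.087, adjusted p = 0.0253) by the dimmest of its probes, whereas its brightest probe had -0.05 (SE 0.16, adjusted p = 0.861). PGK1 rose by 0.41 (adjusted p = 0.0296) by its second probe and had 0.14 (SE 0.055, adjusted p = 0.0917) by its brightest. P4HA2, a prolyl hydroxylase of collagen, rose by 0.32 (adjusted p = 0.0338) by its second probe and had 0.04 (SE 0.088, adjusted p = 0.818) by its brightest. In hg18, the PFKFB3 probe that was called lies at chr10:6306172-6308209 and the brightest one at chr10:6314902-6314961.

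**Figure D2:**
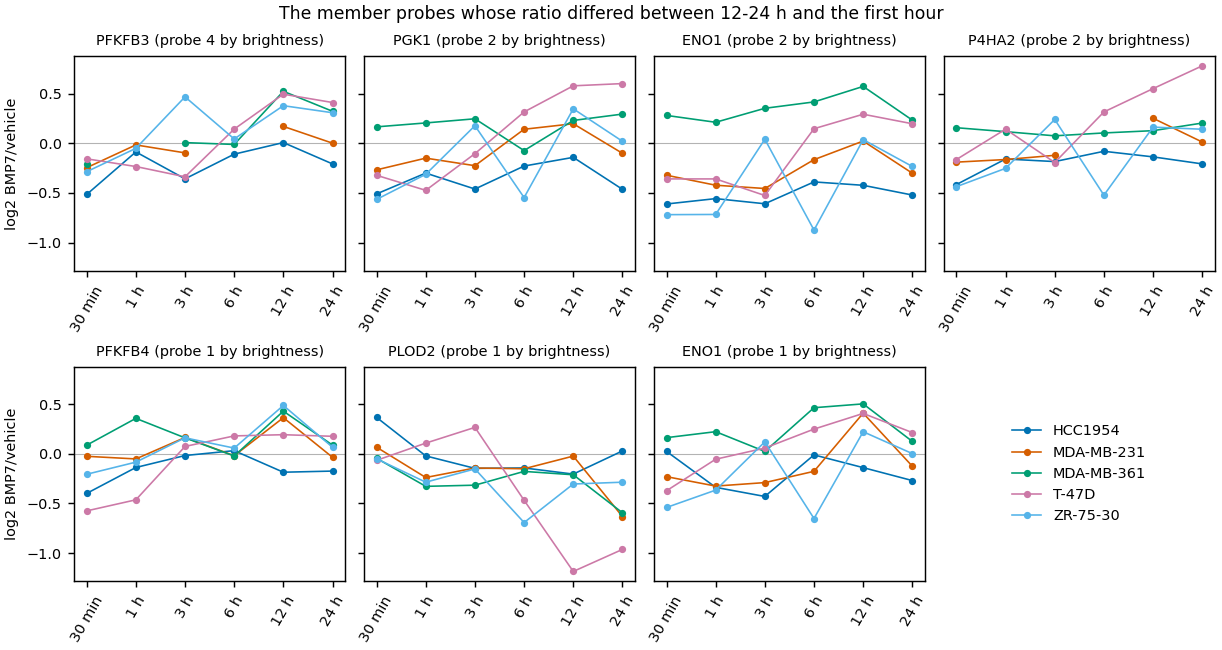
Log2 BMP7/vehicle ratio over the time course for the 7 member probes whose ratio differed between 12 to 24 h and the first hour, 1 line per cell line, with gaps where a channel was not well above background. The T-47D line climbs in all 6 probes that rose and drops to -1.18 in PLOD2 at 12 h.

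Scan and slide move with this comparison. Of the 10 first-hour arrays 3 were in the second scan batch and of the 10 late arrays 0, and no line had first-hour and late arrays on the same slide, so that slide and period cannot be told apart within a line. With the scan batch as a term 0 of the 52 member probes and 4 of all tested probes were called, and without MDA-MB-231, T-47D or ZR-75-30, or with normexp and loess normalisation, the member count was 0 each time.

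Differences between lines in the ratio were then tested, with the 6 times of each line as its samples. The test called 15 of the 52 member probes, 28.8%, where 23.6% of all tested probes were called. By brightest probe 8 of the 33 members were called, and 6 of them were enzymes of glycolysis and lactate formation. NDRG1, a stress-induced growth regulator, had ratios with a median of 0.29 (range 0.10 to 0.58) in MDA-MB-361 and of 0.35 (range 0.02 to 0.50) in ZR-75-30, against -0.06 (range -0.41 to 0.17) in T-47D (adjusted p = 0.00858). By its brightest probe PGK1 was above 0 on all 6 MDA-MB-361 arrays (0.07 to 0.23, adjusted p = 0.0132). This probe was below 0 on all 6 arrays of HCC1954 (-0.25 to -0.07) and of ZR-75-30 (-0.36 to -0.06). Of the 3 tested PGK1 probes only this 1 was called. The PGK1 probe called over time was above 0 on 5 of 6 MDA-MB-361, 0 of 6 HCC1954 and 3 of 6 ZR-75-30 arrays. The dimmest tested PGK1 probe was above 0 on 4 of 6, 4 of 6 and 3 of 6 arrays of these lines. GAPDH, the glyceraldehyde-phosphate dehydrogenase, ran from 0.13 to 0.36 in MDA-MB-361 and from -0.38 to -0.12 in HCC1954 (adjusted p = 0.0313). PGAM1, the phosphoglycerate mutase, was below 0 on all 6 ZR-75-30 arrays, with a median of -0.30 and a lowest value of -1.08 at 6 h (adjusted p = 0.0222).

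The other members called were ALDOA, the main muscle-type aldolase, LDHA, the lactate dehydrogenase subunit, HK2, an inducible hexokinase, and BNIP3L, a mitophagy receptor. ALDOA was above 0 on all 6 MDA-MB-361 arrays (0.05 to 0.20) and below 0 on all 6 HCC1954 arrays (-0.36 to -0.08). LDHA lay between 0.26 and 0.65 in T-47D and between -0.35 and 0.30 in MDA-MB-231, and missed the threshold without the MDA-MB-231 6 h array (adjusted p = 0.05003). HK2 lay between 0.04 and 0.40 in T-47D and between -0.41 and 0.07 in MDA-MB-361. Other probes of these genes differed in sign. In HCC1954 the printed LDHA probe was above 0 on all 6 arrays and both others were below 0 on all 6, and in T-47D one of these was above 0 on 3 of 6. The second HK2 probe was above 0 on 1 of 5 arrays of T-47D. BNIP3L was below 0 on all 6 arrays of each of MDA-MB-231 (-0.81 to -0.13), MDA-MB-361 and ZR-75-30, while its second probe was above 0 on 4 of 6 arrays in both MDA-MB lines. The spread from the lowest to the highest line mean was between 0.34 for PGK1 and 0.55 for PGAM1, all below the 2-fold level. With slide as a random block the test called 7 of the 52 member probes, without the 24 h arrays 3, and with normexp and median scaling 0. Without the MDA-MB-231 6 h array 3 member calls of this test changed, LDHA among them.

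The level of the members in vehicle-treated cells showed how far the lines differed without BMP7. The test between lines called 51 of 52 member probes, where 93.5% of all tested probes were called, so nearly all probes of any kind differed. Without the MDA-MB-231 6 h array 1 member call of this test changed. The largest spread between line means was 4.35 log2 units for NDRG1, a 20.4-fold range, followed by ADM with 18.2-fold, PFKP with 11.0-fold, ENO2 with 10.4-fold, SLC2A1 with 10.2-fold and EGLN3 with 8.35-fold. The smallest spreads were 0.62 for GPI, the glucose-phosphate isomerase, and 0.70 for PDK1, the pyruvate dehydrogenase kinase. Without the MDA-MB-231 6 h array the smallest were 0.77 for LDHA, 0.88 for GPI and 0.91 for PDK1. In that setting the range of ADM was 14.2-fold, and DDIT4 (8.05-fold) stood above EGLN3 (7.86-fold).

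NDRG1 had levels of 2.67 to 3.2 (median 2.98) in HCC1954, 2.67 to 3.91 (median 3.00) in MDA-MB-231, 2.68 to 3.14 (median 2.84) in MDA-MB-361, 0.98 to 1.46 (median 1.27) in ZR-75-30 and -1.54 to -0.91 (median -1.20) in T-47D. The first 3 lines overlapped, ZR-75-30 stood below them and T-47D below ZR-75-30 on every array. ADM was 2.64 to 5.55 (median 3.74) in MDA-MB-231 and 2.23 to 4.11 (median 3.63) in HCC1954, overlapping T-47D at 1.65 to 2.85 (median 2.67). It was -0.51 to 1.1 (median -0.05) in ZR-75-30 and -0.81 to -0.02 (median -0.50) in MDA-MB-361, and both lay below the other 3 lines on every array.

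SLC2A1, the basal glucose transporter GLUT1, was 4.76 to 5.50 (median 5.21) in MDA-MB-361 and 4.56 to 6.84 (median 4.88) in MDA-MB-231, where the highest value is the 6 h array that stood apart. HCC1954 (3.17 to 3.70, median 3.47) and ZR-75-30 (3.11 to 3.69, median 3.48) overlapped, and T-47D was lowest at 1.49 to 2.05 (median 1.83) with no overlap with any line. PFKP, the platelet form of phosphofructokinase, was 4.57 to 5.0 (median 4.83) in ZR-75-30, 3.92 to 5.23 (median 4.51) in MDA-MB-231 and 3.56 to 4.44 (median 4.31) in HCC1954. It was lower in T-47D (2.05 to 2.95, median 2.32) and lowest in MDA-MB-361 (1.01 to 1.57, median 1.42), again without overlap.

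ENO2, the neuron-type enolase, overlapped in MDA-MB-231 (-0.12 to 0.34, median 0.18) and MDA-MB-361 (-0.08 to 0.26, median 0.13). It was lower in ZR-75-30 (-1.88 to -0.95, median -1.41), T-47D (-3.40 to -1.84, median -2.42) and HCC1954 (-4.43 to -2.64, median -3.04), each overlapping the next. EGLN3, an oxygen-sensing prolyl hydroxylase that is itself a hypoxia target, was high in ZR-75-30 (-0.82 to -0.00033, median -0.51) and HCC1954 (-1.29 to 0.45, median -0.68). MDA-MB-361 followed at -2.68 to -2.45 (median -2.57), above T-47D (-3.91 to -2.97, median -3.47) and MDA-MB-231 (-4.42 to -2.97, median -3.44), which overlapped.

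**Figure D3:**
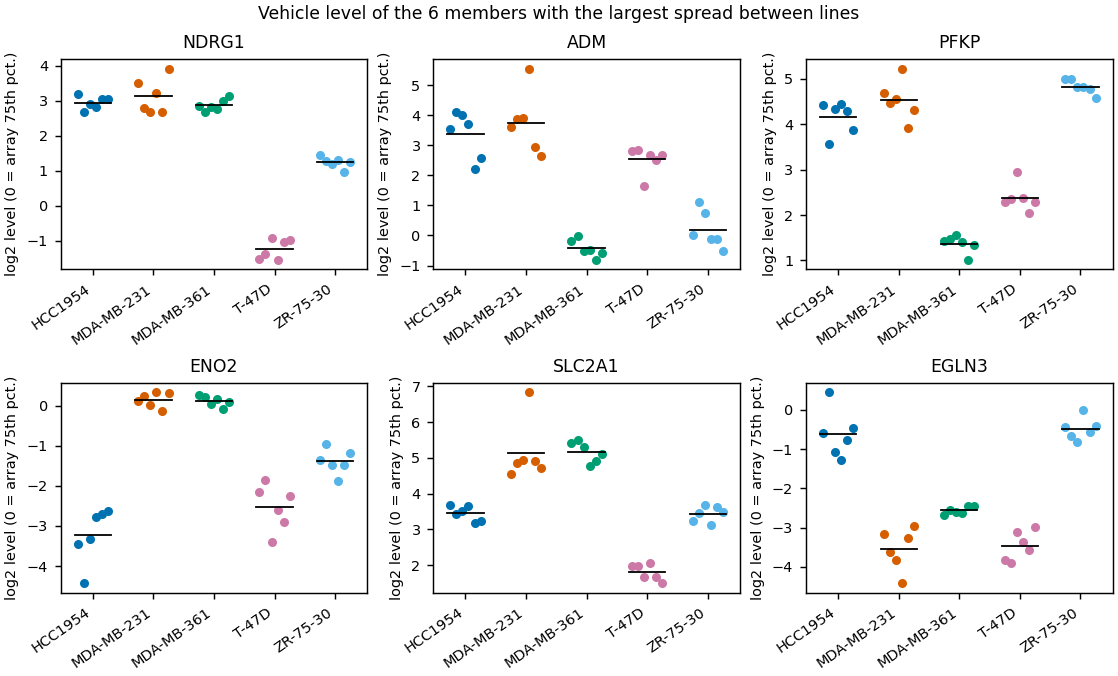
Vehicle level (log2, 0 at the array's 75th percentile) of the 6 members with the largest spread between lines, 1 point per array with the times from 30 min to 24 h running left to right within a line, and a bar at the line mean. T-47D lies below the other lines in NDRG1 and SLC2A1, and the high MDA-MB-231 point in ADM and SLC2A1 is the 6 h array.

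Each line was next set against the mean of the other 4. In MDA-MB-231, 29 of the 52 member probes (55.8%) were higher and 5 (9.62%) lower, where 30.5% of all tested probes were higher and 32.6% lower. In HCC1954, 27 (51.9%) were higher and 11 (21.2%) lower, beside 23.6% and 34.9% of all tested probes. In T-47D the balance was the other way, with 12 (23.1%) higher and 29 (55.8%) lower, beside 37.3% and 26.7%. MDA-MB-361 had 14 (26.9%) higher and 28 (53.8%) lower, beside 33.7% and 32.5%, and ZR-75-30 had 11 (21.2%) higher and 20 (38.5%) lower, beside 32.6% and 24%. The median differences of member probes were 0.57 in MDA-MB-231, 0.44 in HCC1954, -0.17 in ZR-75-30, -0.38 in MDA-MB-361 and -0.49 in T-47D, where those of all tested probes lay between -0.14 and 0.13. With each member counted once by its brightest probe the median was 0.18 in HCC1954 and turned positive in MDA-MB-361, at 0.19, and was 0.49 in MDA-MB-231, -0.18 in ZR-75-30 and -0.47 in T-47D.

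In counts by brightest probe the balance was weaker in HCC1954, with 12 higher and 10 lower of 33, and in MDA-MB-361, with 13 higher and 14 lower. It was 17 higher and 2 lower in MDA-MB-231, 8 and 18 in T-47D, and 8 and 12 in ZR-75-30. HCC1954 and MDA-MB-231 were the 2 highest lines for 10 of the 33 members (30.3%), beside 10.6% of all tested probes (22 of the 52 member probes, 42.3%). Those 10 were PFKL, PGK1, ENO1, PKM2, LDHA, GBE1, P4HA2, ADM, VEGFA and NDRG1. By the second PFKL probe, however, HCC1954 (-2.54 to -1.95) lay below ZR-75-30 (-1.02 to -0.26). Of the 33 members, MDA-MB-231 was the highest line for 11 and the lowest for 2, and T-47D was the highest for 3 and the lowest for 11. Over all tested probes MDA-MB-231 was highest for 20.9% and lowest for 23.2%, and T-47D highest for 25.5% and lowest for 15.8%. For the 13 members with more than 1 tested probe, all probes named the same highest line in 7 and the same lowest line in 4.

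The differences that follow are each line minus the mean of the other 4 (log2). Among transporters and hexokinases, SLC2A1 differed by -2.48 (SE 0.20) and HK2 by -2.18 (SE 0.13) in T-47D, whereas HK1 differed there by 0.11 (SE 0.10) and was not called. HK2 was highest in MDA-MB-361 (3.79 to 4.29) and MDA-MB-231 (3.23 to 4.02 on 5 arrays). By its second probe, however, MDA-MB-361 (-1.93 to -1.45) lay below HCC1954 (-1.38 to -0.69). SLC2A3, the neuron-type transporter GLUT3, was well above background on 5 arrays of MDA-MB-231 and on 0 of every other line. It was at least 2.58-fold higher there than in HCC1954, at least 1.65-fold than in MDA-MB-361, at least 1.32-fold than in T-47D and at least 1.74-fold than in ZR-75-30, taking the dimmest well-measured signal of each array as the limit.

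In upper glycolysis the members did not share a direction. PFKP differed by 1.72 in ZR-75-30 and by -2.60 in MDA-MB-361 (SE 0.12 for both). PFKFB4 differed by -1.49 in ZR-75-30 (SE 0.12), and TPI1, the triose-phosphate isomerase, by -1.60 in T-47D and 1.12 in ZR-75-30 (SE 0.18 for both). PFKFB3 was higher in T-47D by 1.09 and in MDA-MB-361 by 0.91 (SE 0.29 for both). By another tested PFKFB3 probe T-47D lay at 1.73 to 3.11, but MDA-MB-361 at -1.10 to -0.42, below every other line. ALDOC, the brain-type aldolase, was well above background on all 6 T-47D arrays (-2.09 to -1.19) and on 0 of 6 in MDA-MB-361, at least 11.9-fold higher in the first. PFKL, the liver-type phosphofructokinase, moved with the scan by its brightest probe. On the 6 arrays of the second scan batch the level of this probe lay between 1.79 and 4.11, and on the other 24 between -0.16 and 2.61. The second tested PFKL probe had a mean difference of only 0.05 between the batches, with both signs among the lines. GAPDH and ALDOA were also higher on second-batch arrays in each of the 4 lines that had both, by 0.93 and 0.90 on average, where the median over all tested probes was 0.05. The part of the scan batch in the line differences of these genes was not tested.

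In lower glycolysis, 10 of 13 probes were higher in MDA-MB-231 and 0 lower, 9 were higher and 2 lower in HCC1954, 11 were lower and 2 higher in MDA-MB-361, and 9 were lower and 1 higher in T-47D. ZR-75-30 had 1 lower and 0 higher. By brightest probe, of 7 genes 5 were higher and 0 lower in MDA-MB-231, 3 and 2 in HCC1954, 2 and 5 in MDA-MB-361, 1 and 4 in T-47D, and 0 were called in ZR-75-30, so that the balance in HCC1954 came from genes with several probes. The shares of all tested probes given above for each line are the background of these counts. ENO1 differed by 1.09 in MDA-MB-231, 0.74 in HCC1954 and -1.63 in MDA-MB-361 (SE 0.16 for each), and on every array MDA-MB-361 was below all other lines. PGAM1 differed by 0.85 in MDA-MB-231, higher than any other line on all arrays, and by -0.83 in MDA-MB-361 (SE 0.0925 for both). LDHA was higher by 0.95 in MDA-MB-231 (SE 0.21), and by 0.56 (SE 0.11) without the 6 h array, and PGK1 differed by 0.56 in HCC1954 and -0.76 in MDA-MB-361 (SE 0.11 for both). ENO2 had the opposite sign to ENO1 in MDA-MB-361, with 1.87 (SE 0.20).

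Among the regulators and targets outside glycolysis, GBE1, the glycogen branching enzyme, was higher by 1.96 in MDA-MB-231 (SE 0.145), on every array above the other lines. HIF1A differed by 0.84 in HCC1954 and -1.11 in ZR-75-30 (SE 0.16 for both), although its line ranges overlapped in neighbouring lines. EGLN1, the main oxygen-sensing hydroxylase, was higher by 1.31 in HCC1954 (SE 0.0755), by its brightest probe higher there than in any other line on all arrays. By another tested EGLN1 probe, however, HCC1954 (-0.06 to 0.38) overlapped MDA-MB-361 (0.06 to 0.36). By the remaining EGLN1 probe HCC1954 (-1.69 to -1.13) overlapped ZR-75-30 (-2.03 to -1.56). PLOD2 differed by -1.98 in MDA-MB-361 (SE 0.15), and P4HA2 by 1.1 in MDA-MB-231 (SE 0.24), or 0.66 (SE 0.14) without the 6 h array. BNIP3, a mitophagy receptor, differed by 1.57 in MDA-MB-231 and -1.56 in HCC1954 (SE 0.12 for both).

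Of the secreted factors, all 5 tested probes of ADM and VEGFA were higher in HCC1954 and in MDA-MB-231, and all 5 were lower in MDA-MB-361 and in ZR-75-30. In T-47D the ADM probe was higher by 0.81 (SE 0.25) and the 4 VEGFA probes lower. VEGFA by its brightest probe was 1.56 to 2.89 in MDA-MB-231 and 1.09 to 1.94 in HCC1954, above MDA-MB-361 (-0.44 to 0.00018), ZR-75-30 (-1.09 to 0.25) and T-47D (-1.58 to 0.09) on every array. CA9, a hypoxia-induced carbonic anhydrase, was near background in all lines. Only HCC1954 (6 arrays) and MDA-MB-231 (2 arrays) had vehicle arms in which it passed the background limit.

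Among stress and growth genes DDIT4 differed by 1.91 in MDA-MB-361 and -1.85 in HCC1954 (SE 0.22 for both). ANKRD37 had the same sign in those lines, with 0.82 and -1.03 (SE 0.15). MXI1, an antagonist of MYC, differed by 0.89 in ZR-75-30 and -0.81 in T-47D (SE 0.17 for both). Centring each array on its median instead of its 75th percentile gave 9 higher calls in MDA-MB-361 in place of 14, and put the median of all tested probes there at -0.20. Without the MDA-MB-231 6 h array 4 further members passed the threshold in that line, GAPDH (-0.60) and GPI (-0.67) as lower and P4HA1 (0.56) and PDK1 (0.51) as higher, and the second HK2 probe went from 0.94 to 0.57. In the other lines 11 member probes gained a call without it, 4 in HCC1954, 4 in ZR-75-30, 2 in MDA-MB-361 and 1 in T-47D.

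**Figure D4:**
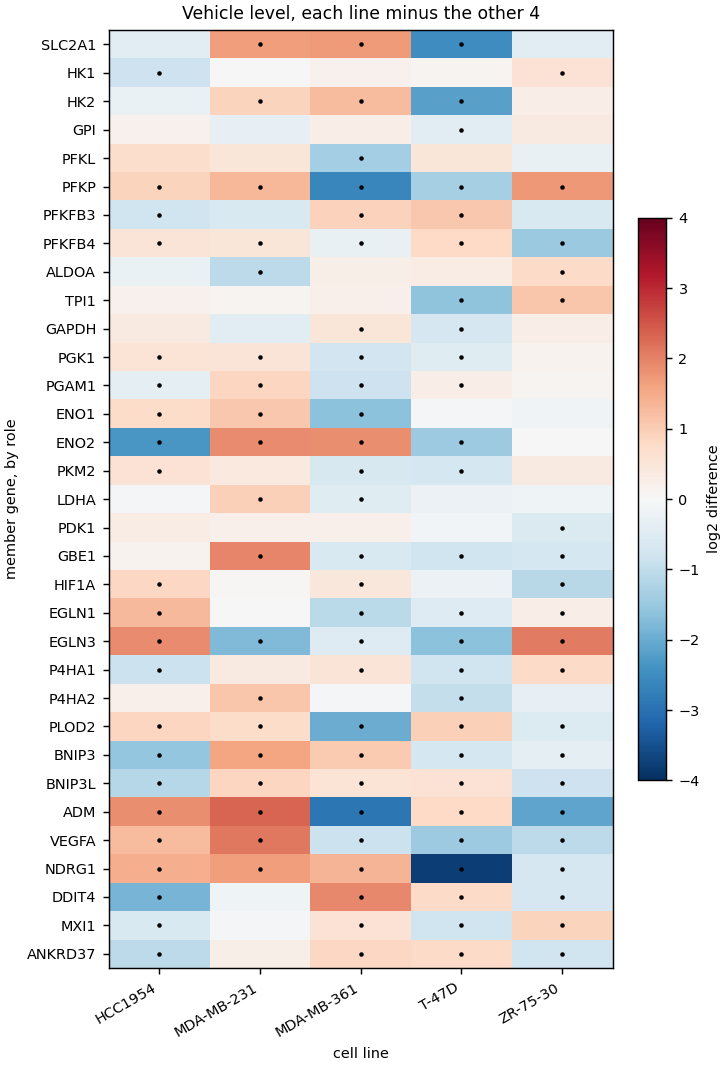
Difference in vehicle level (log2) between each line and the mean of the other 4 for the 33 members with a tested probe, in the order of their roles, with a dot where the adjusted p passed 0.05. Red cells prevail in the MDA-MB-231 column, with 17 members higher and 2 lower, and blue cells in the T-47D column, with 8 higher and 18 lower.

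The vehicle arms also allow a comparison of the late times with the first hour without BMP7, which asks whether the members drift in culture. Of the 52 member probes 0 were called in either direction by limma, and 8 (15.4%) had an unadjusted p under 0.05, beside 10.8% of all tested probes. Of all tested probes 0.0143% were called higher and 0.0476% lower. In the BMP7-treated arms the count was also 0, with 9 (17.3%) at an unadjusted p under 0.05, beside 11.3% of all tested probes, where 0.105% of all tested probes were higher and 0.157% lower. These levels are not independent of the ratios, since the vehicle channel is the denominator of each ratio.

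DDIT4 and ADM had the largest changes, in opposite directions. In vehicle-treated cells DDIT4 was 0.48 and 0.45 in the first hour and 1.40 and 1.63 at 12 and 24 h in HCC1954, 1.21 and 0.99 against 1.85 and 2.85 in MDA-MB-231, and 3.34 and 3.57 against 3.98 and 3.40 in MDA-MB-361. It was 2.58 and 2.61 against 3.60 and 2.92 in T-47D, and 1.44 and 1.26 against 2.12 and 2.36 in ZR-75-30. The late values lay above both early ones in every line but MDA-MB-361, where 24 h fell between them (mean change 0.82, SE 0.21, adjusted p = 0.143). In BMP7-treated cells the change was 0.87 (adjusted p = 0.0864).

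ADM in vehicle-treated cells was 3.56 and 4.11 in the first hour and 2.23 and 2.58 at 12 and 24 h in HCC1954, 3.61 and 3.87 against 2.95 and 2.64 in MDA-MB-231, and -0.19 and -0.02 against -0.81 and -0.58 in MDA-MB-361. It was 2.82 and 2.85 against 2.52 and 2.67 in T-47D, and 0.003 and 1.1 against -0.11 and -0.51 in ZR-75-30. All late values lay below both early ones within each of the 5 lines, and the mean change was -0.81 (SE 0.24, adjusted p = 0.177). In BMP7-treated cells it was -0.88 (adjusted p = 0.0736). Without the MDA-MB-231 6 h array, at which ADM reached 5.55 in the vehicle and 5.56 in the BMP7 channel, the BMP7-arm changes of ADM and DDIT4 passed the threshold (adjusted p = 0.0105 and 0.0357), and the vehicle changes did not (adjusted p = 0.0519 and 0.0598).

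**Figure D5:**
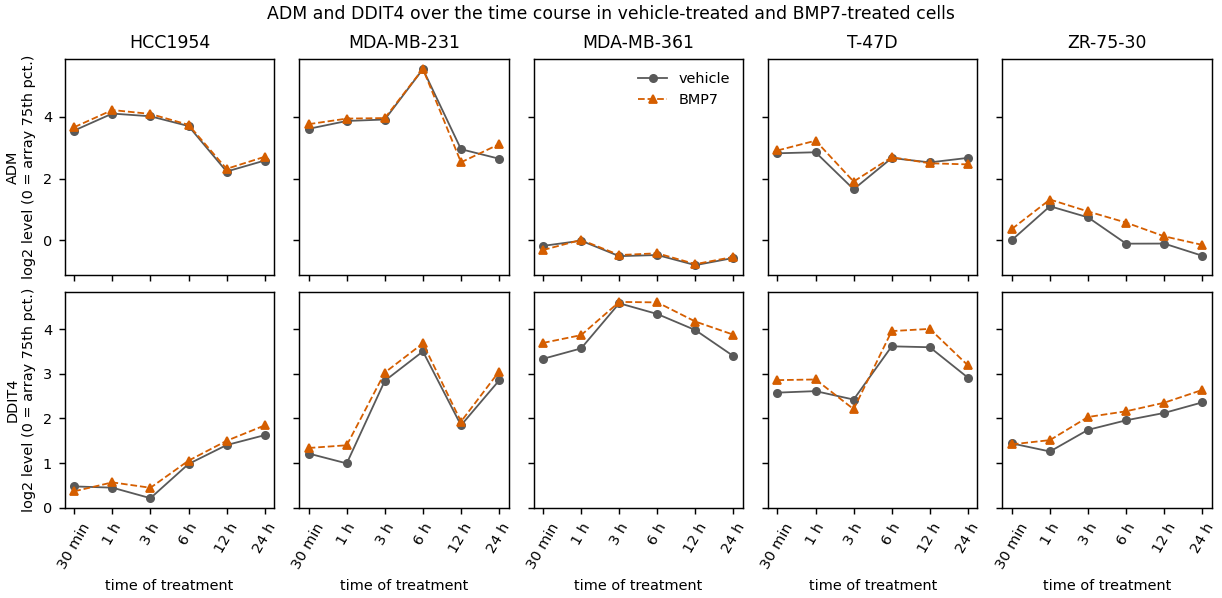
Level (log2, 0 at the array's 75th percentile) of ADM and DDIT4 over the time course in vehicle-treated cells (grey circles) and BMP7-treated cells (orange triangles) of each line, 1 array per line and time. Both arms run together within a line, ADM is lower at 12 and 24 h than in the first hour in all 5 lines, and the MDA-MB-231 peak at 6 h is the array that stood apart.

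BNIP3L and MXI1 were the next members, with vehicle changes of 0.40 (SE 0.13, adjusted p = 0.213) and 0.45 (SE 0.17, adjusted p = 0.300). ENO1 had a vehicle change of -0.37 (SE 0.15, adjusted p = 0.345) beside its ratio change of 0.32. A test of whether the change over time differed between lines called 0 of 51 member probes and 0% of all tested probes, with 9 member probes (17.6%) and 8.54% of all tested probes at an unadjusted p under 0.05.

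Other genes of the same pathways were read in the same fits. In none of 5 further lists, of other glycolysis genes, other hypoxia targets, respiration, the pentose phosphate pathway and glucose sensing, did a probe pass the test of the mean ratio, with 4 of 14, 5 of 42, 9 of 58, 5 of 13 and 2 of 11 probes at an unadjusted p under 0.05. Of all tested probes 16.3% had such a p in that test. For the ratio over time, 6 of 42 probes of other hypoxia targets rose and 1 fell, beside 5.89% and 2.14% of all tested probes. Among those that rose were PLOD1, a lysyl hydroxylase (0.31, SE 0.090, adjusted p = 0.0365), and EGLN2, another oxygen-sensing hydroxylase (0.28, SE 0.073, adjusted p = 0.0303). In the pentose phosphate pathway PGD, the phosphogluconate dehydrogenase, rose by 0.36 (SE 0.098, adjusted p = 0.0319) as 1 of 13 probes, beside the same 5.89%. The limits of scan batch and slide given above for this comparison hold for these calls too. In vehicle level 29 of 58 respiration probes were higher and 6 lower in T-47D, where 37.3% and 26.7% of all tested probes were, and 6 were higher and 27 lower in MDA-MB-231, beside 30.5% and 32.6%. The difference between this list and lower glycolysis was not tested. SLC16A3, the lactate exporter MCT4, differed by 3.39 in MDA-MB-231 (SE 0.16), and FBP1, the gluconeogenic fructose bisphosphatase, by -7.58 in HCC1954 (SE 0.090), where 4 of 6 arrays measured it well above background.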

How the data were processed

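The set was read on Agilent 44K whole human genome arrays. Per the file headers, the authors scanned each array and extracted spot intensities with Feature Extraction 9.5.1.1, which subtracted background, normalised the dyes and deposited a log10 ratio of Cy5 to Cy3 and processed intensities of both channels per spot. The authors also deposited a table of normalised log2 ratios, used as an alternative. Probe positions are hg18 as in the files. Here the log10 ratio was converted to log2, outlier-marked spots and those not well above background were dropped, repeated spots were averaged per probe, and levels were log2 processed signals minus the array's 75th percentile. Fits used limma 3.58.1 in R 4.3.3: the mean ratio over 5 line means, late against first-hour differences within lines, and F tests between lines over 6 times. The scripts were tested on simulated data, where of the genes changed by 1 and by 2 log2 units the mean ratio test recovered 198 and 200 of 200, and the test of differing change over time between lines recovered 0 and 75. False calls numbered 6 and 15 in the mean ratio test and 0 and 2 in the other. Changes below 1 log2 unit, the size of the member ratios described here, were not simulated. The 36 members, their roles and all other lists were chosen with earlier results of these data known. All members were described by role, with array values for called members and for the 6 with the largest spread between lines. Depth has no count here; the number of arrays and the background limit the precision. Alternatives changed the filter, background correction, scaling, batch terms and the lines or times used. With 1 array per condition the spread between replicate samples of a line and time could not be measured, and a difference at a single line and time was not tested.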

Additional observations from a re-analysis of the deposited data

Results flagged for a closer look

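The BMP7-treated level of the member probes was high on the MDA-MB-231 6 h array. Its median was 3.35 on the log2 scale and lay farther from the other 5 arrays of the line than Dixon's 95% critical value allows. The vehicle median of the same array was 3.22 and did not pass that limit. Among 15 sets of 6 arrays examined this was the only one, and chance marks about 1 in 20 groups.

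The BMP7 response of 8 of 33 members (24.2%) differed between lines, beside 23.6% of all tested probes, and with normexp and median scaling 0 of the 52 member probes were called. From the lowest to the highest line mean of the log2 ratio, the differences were 0.405 for HK2, 0.358 for ALDOA, 0.463 for GAPDH, 0.343 for PGK1, 0.550 for PGAM1, 0.347 for LDHA, 0.393 for BNIP3L and 0.434 for NDRG1. The dyes were not swapped on any array, and what lies behind these differences was not tested.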

How the results depend on the processing

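The count of member probes called for the mean ratio was 0 as reported and under 12 of 13 alternatives, and 13 with the normexp correction plus median scaling, where the median ratio of all tested probes was 0.107. The count for the ratio over time, 7, became 0 with the scan batch as a term, 0 with normexp and loess, 0 with normexp and median scaling, 1 with no filter and 4 with 3 to 24 h against 30 min, and ran from 0 to 8 when 1 line or the MDA-MB-231 6 h array was left out. The change of ENO1 was -0.00709 with normexp and median scaling, a setting in which the median of all tested probes was -0.204. The count for differences between lines in the ratio, 15, became 0 with normexp and median scaling and 7 with slide as a random block, an alternative chosen after seeing the data, and ran from 3 to 12 when 1 time or the MDA-MB-231 6 h array was left out. The BMP7-treated change over time had 0 calls, 1 with quantile normalisation and 1 with normexp, and from 0 to 2 when 1 line or that array was left out. Higher calls in MDA-MB-361 numbered 9 with array medians, against 14. VEGFA had mean ratios of -0.0812 and -0.132 by 2 other probes. Vehicle changes over time stayed at 0 calls and differences in vehicle level at 49 to 57. The causes were not tested. Each array pairs both arms of 1 line and time, and changes over time were taken within lines. No fit with a replicate block could be made, since each line and time had 1 array and the labels number no replicates. Signals near background, as of CA9 and SLC2A3, give bounds only.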
